A study of Mus musculus with 8 samples.

Results

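The 9 genes described here encode ligands, receptors and inhibitors of the IL-1, IL-18 and IL-33 systems: Il33 and Il18 (ligands), Il1rn and Il18bp (soluble inhibitors), Il1r1, Il1rl1 and Il18r1 (ligand-binding receptors), Il1rap (the shared co-receptor) and Il1r2 (a decoy receptor). They are 9 of the 27179 Entrez gene identifiers in the count table, and all 9 were found in it by identifier. The genes were selected by name with the QZ1-hi versus QZ1-lo results of these same libraries already known, so their levels and fold changes are given as a description with no p value.

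The libraries were bulk RNA-seq of lung cells from C57BL/6 mice (female C57BL/6J in the study's methods) with Eml4-Alk tumors, a model of non-small cell lung cancer. The labels call the lesion a translocation and the methods an inversion, and it was made by intratracheal adenovirus encoding Cas9 and guides. Every mouse was 18 to 22 weeks old, was 11 to 12 weeks past tumor induction, and received 4.5 nmol of QZ1-(PEG2K), a protease-activated fluorescent peptide probe, by tail vein 2 hours before the lungs were taken. Live CD45-/CD11b- cells were sorted by probe signal into QZ1-hi (labelled QZ+, n = 4 libraries) and QZ1-lo (labelled QZ-, n = 4 libraries), with at least 100000 cells collected for each. The study did not assess the purity of the sorted fractions, healthy lungs are not among these libraries, and no source says which libraries came from the same mouse, so p values measure the spread between these libraries.

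Cytokines of the IL-1 family bind a ligand-specific receptor chain, which then recruits an accessory chain. The joined cytoplasmic domains recruit MyD88 and IRAK kinases and switch on NF-kB. IL-1β and IL-18 are cut to their active form by caspase-1 in the inflammasome, whereas IL-33 is stored in the nucleus and released when cells are damaged. Decoy receptors, the IL-1 receptor antagonist and the IL-18 binding protein restrain these signals. In the lung, IL-33 is best known as an alarm signal of alveolar type 2 and other barrier cells.

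The libraries held between 18380918 and 26847938 counts. Mitochondrial and ribosomal RNA took 44.0%, 63.0%, 52.3% and 65.7% of them in QZ1-hi 1 to 4. In QZ1-lo 1 to 4 it took 34.3%, 53.5%, 37.3% and 43.5%. Levels are given as CPM, the count scaled to the library's size by the TMM method. The TMM factors were 0.660 to 1.10 in QZ1-hi and 0.969 to 1.35 in QZ1-lo. The floor, 3 counts in a library, was 0.0894 to 0.179 CPM and covers counting error only. Genes of cells that the gate should remove were counted in every library: Ptprc, which encodes CD45, ranged from 71.4 to 221.8 CPM in QZ1-hi and from 93.4 to 160.8 CPM in QZ1-lo. The 12 endothelial markers summed to 1632 to 3551 CPM in QZ1-hi and 194 to 521 CPM in QZ1-lo (11 of 12 called higher), and the 7 fibroblast markers summed to 1028 to 2069 and 33.7 to 239.6 CPM (6 of 7 called higher). The epithelial markers Epcam and Cdh1 summed to 212 to 346 CPM in QZ1-hi and 548 to 742 CPM in QZ1-lo (2 of 2 called lower).

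Of the 15583 genes that passed the low-count filter, edgeR's quasi-likelihood test called 1540 (9.88%) higher in QZ1-hi and 1280 (8.21%) lower, with 0.05 as the limit on the adjusted p. All QZ1-hi libraries were above all QZ1-lo libraries for 11.9% of these genes and below them for 10.7%. Each of the 9 genes passed the filter. Il1r1 was called higher, Il18r1 and Il1r2 were called lower, and the other 6 were not called. The populations did not overlap for the same 3 genes. Since this contrast was known when the genes were listed, nothing is read from these shares. The calls of these genes, here and in refits of the same libraries, are likewise a description and no independent support. The median log2 fold change, QZ1-hi over QZ1-lo, was 0.24 over the 9 genes and 0.02 over all genes tested.

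Il1r2, Il1r1, Il1rl1 and Il18r1 sit with their relatives Il1rl2 and Il18rap in the IL-1 receptor family cluster of mouse chromosome 1 (GRCm38.p6, + strand). The order is Il1r2, Il1r1, Il1rl2, Il1rl1, Il18r1 and Il18rap. Sequences before the starts of 3 cluster genes are shown: Il18r1 and its partner Il18rap, both called lower, and Il1r1, called higher. The gap between the annotated end of Il1rl1 and the start of Il18r1 is 133 bases long and lies at chr1:40465419-40465551. Il1r1 has 2 starts with a promoter window, and its annotated gene begins before both, at 40222480. The 100 bases before the first of these starts lie at chr1:40224980-40225079. The 250 bases before the second, which hold a motif match, lie at chr1:40266336-40266585. For Il18rap the 100 bases before its start lie at chr1:40515262-40515361. None of the printed bases falls in an annotated exon. The 100 bases before the Il1r2 start with a promoter window, 40086093, all lie in an Il1r2 exon and are not printed. The annotated Il1r2 gene begins earlier, at 40084692. The sequences are from RefSeq, run 5′ to 3′, and capitals mark the match to the NF-kB consensus, searched on both strands.
Il18r1: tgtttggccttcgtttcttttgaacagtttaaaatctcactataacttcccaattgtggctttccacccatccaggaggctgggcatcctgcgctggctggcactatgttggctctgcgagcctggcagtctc
Il1r1 first start: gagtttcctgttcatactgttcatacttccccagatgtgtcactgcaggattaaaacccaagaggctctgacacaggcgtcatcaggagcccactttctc
Il1r1 second start: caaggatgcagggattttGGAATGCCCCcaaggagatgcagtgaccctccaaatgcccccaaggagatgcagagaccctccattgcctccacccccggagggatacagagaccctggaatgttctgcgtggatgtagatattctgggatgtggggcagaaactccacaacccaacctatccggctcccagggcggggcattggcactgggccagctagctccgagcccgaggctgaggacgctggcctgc
Il18rap: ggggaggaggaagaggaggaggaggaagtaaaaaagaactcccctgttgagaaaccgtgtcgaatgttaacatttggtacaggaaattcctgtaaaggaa
The capitals in the second stretch of Il1r1 begin at position -232 relative to that start. No other match to this consensus was found in the 16 windows of the 9 genes, each holding 250 bases before and 50 bases after a start, and 4.53% of all 32544 promoter windows held one. TATAAA was searched on both strands, and 13.6% of all windows held it on either. It was found on the strand of the gene in the windows of both starts of Il33. The windows of Il18 and of the third start of Il1rn held only its reverse complement, TTTATA. The AP-1 letters TGANTCA were found in the first start of Il1rn alone among these 16, against 7.79% of all windows. These matches describe letters and are not binding sites.

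**Figure D1:**
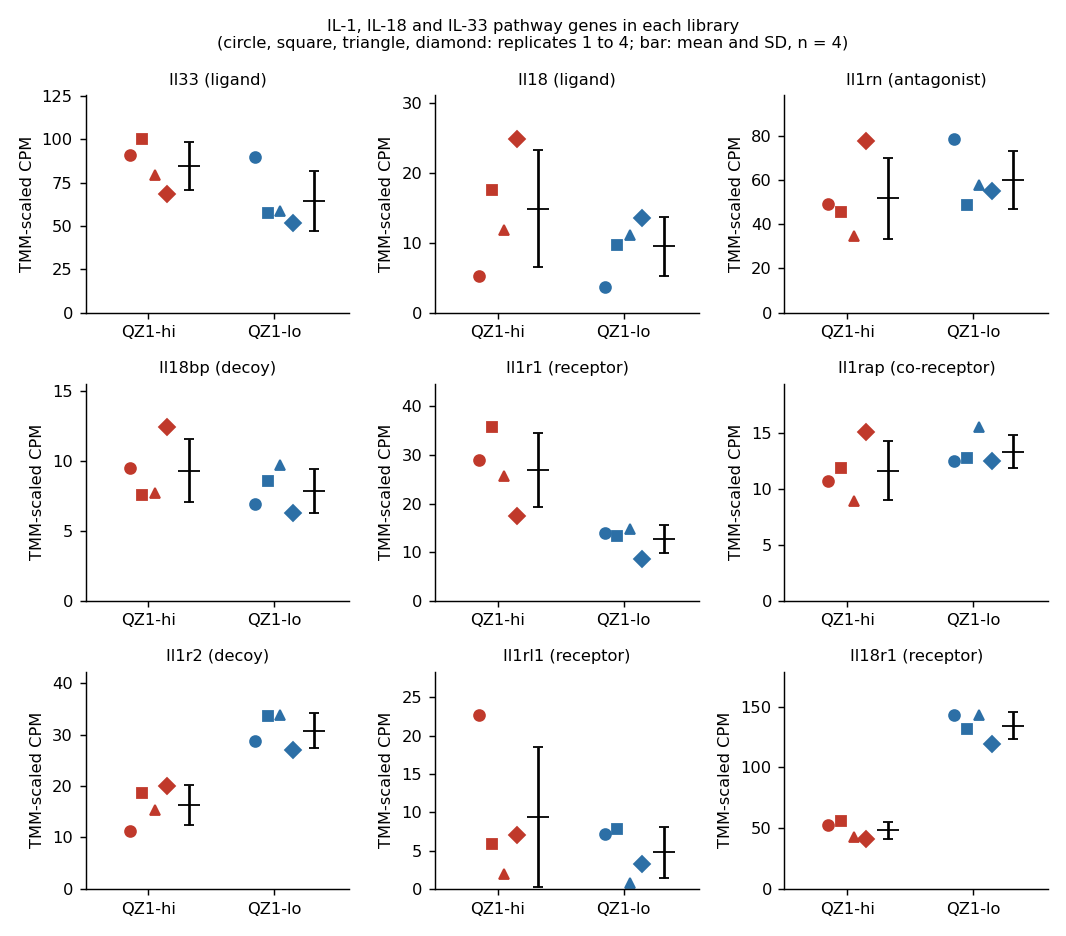
TMM-scaled CPM (vertical axes, each from 0) of the 9 genes in the 4 QZ1-hi libraries (red) and the 4 QZ1-lo libraries (blue), with symbols for replicates 1 to 4 and black bars for mean and SD. The 2 populations separate fully for Il18r1 (41.0 to 56.0 against 119.3 to 142.9), Il1r2 and Il1r1, and overlap for the other 6.

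Among the ligands, Il33 had the highest mean level per kilobase of the 9 genes in QZ1-hi. It measured 90.8, 100.3, 79.2 and 68.6 CPM in QZ1-hi 1 to 4 and 89.7, 57.6, 58.4 and 51.8 CPM in QZ1-lo 1 to 4. QZ1-lo 1 stood with the QZ1-hi libraries and the other 3 QZ1-lo libraries lay below all QZ1-hi libraries. The log2 fold change was 0.40 (SE 0.18, not called), and -0.080 when library size replaced TMM scaling, which moved the median of all genes from 0.02 to -0.44. Without QZ1-lo 1 it was 0.60 and Il33 was called higher. The alveolar type 2 markers, which include surfactant genes of a cell type known to make IL-33 in mouse lung, summed to 5792 to 10520 CPM in QZ1-hi and 4552 to 6984 CPM in QZ1-lo, with 1 of 8 called higher (Sftpc) and 1 lower (Nkx2-1). In bulk RNA, fewer cells of a type and less RNA per cell cannot be told apart.

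Il18, the precursor of IL-18, had a wider range within each population than the difference between their means. Its levels were 5.30, 17.6, 11.9 and 24.9 CPM in QZ1-hi 1 to 4 and 3.67, 9.72, 11.1 and 13.5 CPM in QZ1-lo 1 to 4. The log2 fold change was 0.65 (SE 0.46, not called), and it ran from 0.32 to 0.93 as single libraries were left out. QZ1-hi 4 and QZ1-lo 4 held the highest Il18 of their populations. The 7 macrophage and monocyte markers also summed highest in those libraries, to 6746 and 4412 CPM, where the remaining libraries gave 3111 to 3594 CPM (QZ1-hi) and 2139 to 2887 CPM (QZ1-lo). Lyz2 alone made up 5763 and 3761 CPM of the sums in QZ1-hi 4 and QZ1-lo 4. Each of the 7 markers was highest of its population in those libraries. None of these 7 markers was called, and their part in Il18 was not tested.

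Of the inhibitors, Il18bp encodes the secreted protein that captures IL-18. It measured 9.49, 7.61, 7.75 and 12.5 CPM in QZ1-hi 1 to 4 and 6.92, 8.58, 9.73 and 6.26 CPM in QZ1-lo 1 to 4, a log2 fold change of 0.24 (SE 0.23, not called) that was -0.24 with library size scaling. The ranges overlapped. Il18bp lies over Numa1 on the opposite strand, and since the strand setting of the counting is not given in the sources used here, reads of the 2 genes may be mixed.

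Il1rn encodes the IL-1 receptor antagonist, which occupies IL1R1 without signalling. Its levels were 49.0, 45.7, 34.8 and 77.6 CPM in QZ1-hi 1 to 4 and 78.8, 48.5, 57.6 and 55.2 CPM in QZ1-lo 1 to 4. QZ1-hi 4 and QZ1-lo 1 were close to each other at the top, and the log2 fold change was -0.21 (SE 0.23, not called).

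Among the receptors, Il18r1, the ligand-binding chain for IL-18, showed the widest separation of the 9 genes. It measured 52.5, 56.0, 43.0 and 41.0 CPM in QZ1-hi 1 to 4 and 142.9, 131.9, 142.9 and 119.3 CPM in QZ1-lo 1 to 4. The lowest QZ1-lo library was above the highest QZ1-hi library, and the coefficient of variation was 15.1% in QZ1-hi and 8.36% in QZ1-lo. The fitted level was 2.79-fold higher in QZ1-lo (log2 fold change -1.48, SE 0.13). It ran from -1.58 to -1.38 as single libraries were left out and was called lower in all 8 of those fits.

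The lists whose sums were lower in all 4 QZ1-hi libraries than in all 4 QZ1-lo libraries, as Il18r1 was, were the epithelial, club, ciliated and alveolar type 1 lists. Club cell markers summed to 314 to 982 CPM in QZ1-hi and 1400 to 4019 CPM in QZ1-lo (4 of 4 called lower). Ciliated cell markers summed to 51.2 to 124.9 and 180 to 371 CPM (4 of 4 called lower), and alveolar type 1 markers to 408 to 643 and 794 to 965 CPM (4 of 5 called lower, with Pdpn called higher). Lymphocyte and ILC2 markers, a class known for the IL-18 receptor, summed to only 27.5 to 35.2 CPM in QZ1-hi and 24.4 to 58.5 CPM in QZ1-lo (1 of 10 called lower, Cd3g), with a median log2 fold change of -0.95 and overlapping sums. Within this list Gata3 (1.88) and Rora (0.28) had positive log2 fold changes and were not called, while the rest were negative. The sums of the neutrophil list, with a median of -0.35, overlapped too. The part of any of these cell types in the Il18r1 level was not tested.

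Il1r1, the signalling receptor of IL-1α and IL-1β, was the only one of the 9 genes called higher. Its levels were 29.0, 35.8, 25.6 and 17.5 CPM in QZ1-hi 1 to 4 and 14.0, 13.4, 14.8 and 8.51 CPM in QZ1-lo 1 to 4. All 4 QZ1-hi libraries were above all 4 QZ1-lo libraries, with QZ1-hi 4 and QZ1-lo 4 the lowest of their populations. The fitted level was 2.13-fold higher in QZ1-hi (log2 fold change 1.09, SE 0.24). With library size scaling it was 0.64 and was not called. The endothelial and fibroblast sums given above moved with it, as did those of the 6 pericyte markers (186 to 324 CPM in QZ1-hi and 19.9 to 59.2 CPM in QZ1-lo, 4 of 6 called higher) and of the 3 mesothelial markers (29.7 to 208.0 CPM in QZ1-hi and 5.44 to 27.5 CPM in QZ1-lo, 3 of 3 called higher). Their part in the Il1r1 level was not tested.

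Il1r2, which binds IL-1 but lacks the domain that signals, had the opposite direction. It measured 11.2, 18.6, 15.3 and 20.0 CPM in QZ1-hi 1 to 4 and 28.7, 33.6, 33.8 and 27.1 CPM in QZ1-lo 1 to 4. The populations did not overlap. The fitted level was 1.90-fold higher in QZ1-lo (log2 fold change -0.92, SE 0.19) and was called lower in QZ1-hi in all 8 fits that left out a library. Neutrophils are known for this decoy. Their 6 markers summed to 155 to 350 CPM in QZ1-hi and 249 to 337 CPM in QZ1-lo, and 1 of the 6, Csf3r, was called lower (-0.96, edgeR adjusted p = 0.00793), while S100a8 (-0.18) and S100a9 (-0.35) were not called. Their part in the Il1r2 level was not tested.

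Il1rap encodes the accessory chain used by the IL-1 and IL-33 receptors. It measured 10.7, 11.9, 8.90 and 15.1 CPM in QZ1-hi 1 to 4 and 12.5, 12.8, 15.6 and 12.5 CPM in QZ1-lo 1 to 4. QZ1-hi 4 lay inside the QZ1-lo range and the other 3 QZ1-hi libraries below it, with a log2 fold change of -0.20 (SE 0.19, not called). Membrane and soluble isoforms cannot be told apart in gene counts. Of the 50-base stretches of Il1rap, 3.98% are shared with other genes, and Gm20319 shares more of them than any other gene. Gm20319 overlaps Il1rap on the opposite strand.

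Il1rl1 encodes ST2, the IL-33 receptor, in a membrane and a soluble decoy form that gene counts do not separate. Its levels were 22.7, 5.83, 1.97 and 6.97 CPM in QZ1-hi 1 to 4 and 7.21, 7.85, 0.724 and 3.23 CPM in QZ1-lo 1 to 4. It was the most variable of the 9 genes, with coefficients of variation of 97.5% (QZ1-hi) and 71.0% (QZ1-lo), and QZ1-hi 1 stood far above the rest. The log2 fold change was 0.98 (SE 0.73, not called) and fell to 0.05 without QZ1-hi 1.

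Mast cells are known for ST2. The markers Cpa3 (1.48 CPM), Tpsb2 (1.65 CPM) and Cma1 (1.57 CPM) were highest in QZ1-hi 1, as were Kit and Mcpt4, while Fcer1a was at 0 in all 8 libraries. Mcpt8 went the other way, with no count in QZ1-hi and 0.325 and 0.164 CPM in QZ1-lo 2 and 4. Cpa3, Tpsb2 and Mcpt4 had no count in any QZ1-lo library, although Il1rl1 reached 7.85 CPM in QZ1-lo 2. The 7 mast cell and basophil markers summed to 35.3 to 81.5 CPM in QZ1-hi and 4.54 to 15.6 CPM in QZ1-lo. Kit, which endothelial and other cells also express, made up 35.1 to 76.7 CPM of the QZ1-hi sums. Their part in the Il1rl1 level was not tested.

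**Figure D2:**
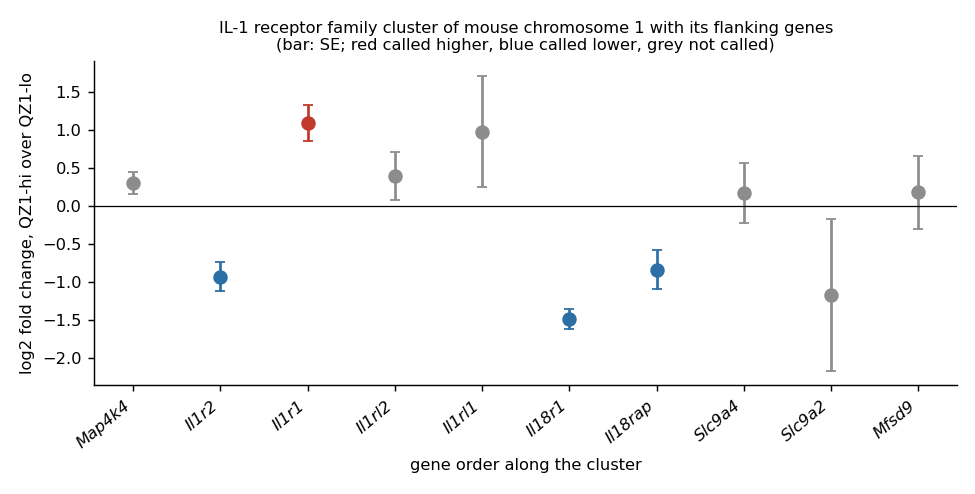
Log2 fold change, QZ1-hi over QZ1-lo (vertical axis), of the receptor cluster of chromosome 1 and its flanking genes in their order along the chromosome (horizontal axis, not to scale), with SE bars. Il1r1 (1.09, red) sits next to Il1r2 (-0.92, blue), and Il18r1 (-1.48) and Il18rap (-0.83) are both below 0.

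Along the chromosome 1 cluster, the log2 fold changes took both signs. They were -0.92 for Il1r2, 1.09 for Il1r1, 0.39 for Il1rl2 (SE 0.32, not called), 0.98 for Il1rl1 (not called), -1.48 for Il18r1 and -0.83 for Il18rap. Il1rl1 and Il18r1, the genes separated by 133 bases, differed widely in level. Per kilobase of exons, Il18r1 held 8.51 to 29.7 CPM over the 8 libraries and Il1rl1 0.105 to 3.29 CPM. The flanking genes were not called: Map4k4 had 0.31 (SE 0.14) before the cluster, and Slc9a4 (0.18, SE 0.40), Slc9a2 (-1.16, SE 1.00) and Mfsd9 (0.18, SE 0.48) had wide errors after it. The signs of Il1rl2, Map4k4, Slc9a4 and Mfsd9 turned with library size scaling.

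Levels were compared between genes as CPM per kilobase of annotated exons. In QZ1-hi the order of the means was Il33 (29.4 ± 4.77, SD, n = 4), Il18 (14.5 ± 8.09), Il18r1 (9.99 ± 1.51), Il1rn (9.36 ± 3.30), Il1r2 (8.52 ± 2.04), Il1r1 (4.24 ± 1.19), Il18bp (3.08 ± 0.745), Il1rl1 (1.36 ± 1.32) and Il1rap (1.03 ± 0.231). The libraries of each neighbouring pair in that order overlapped, except for Il1r2 and Il1r1. In QZ1-lo the order was Il18r1 (27.9 ± 2.33), Il33 (22.3 ± 5.93), Il1r2 (16.1 ± 1.80), Il1rn (10.8 ± 2.36), Il18 (9.22 ± 4.07), Il18bp (2.60 ± 0.522), Il1r1 (1.99 ± 0.445), Il1rap (1.17 ± 0.131) and Il1rl1 (0.690 ± 0.490). Neighbours overlapped there too, except for Il33 and Il1r2 and for Il18 and Il18bp. Il18r1 thus ranked 3 in QZ1-hi and 1 in QZ1-lo. With the longest transcript as the length, Il1rn moved from 9.36 to 20.3 in QZ1-hi and Il1rap from 1.03 to 2.58. In QZ1-hi, Il1rn then ranked 2, Il18 3 and Il18r1 4, and Il1rap came above Il1rl1. In QZ1-lo, Il1rn then came above Il1r2 and Il1rap above Il1r1, while Il18r1 and Il33 kept ranks 1 and 2.

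Ratios of counts within a library need no scaling between libraries, and 5 pairs were compared as a description. They were not corrected for gene length, so a ratio above or below 1 does not rank the 2 genes of a pair. Il1r1 has 6363 exonic bases and Il1r2 has 1908. Per kilobase of exons the QZ1-hi means were 4.24 CPM for Il1r1 and 8.52 CPM for Il1r2. The signalling receptor Il1r1 against its decoy Il1r2 gave ratios of 2.58, 1.93, 1.68 and 0.878 in QZ1-hi 1 to 4 and 0.488, 0.398, 0.438 and 0.314 in QZ1-lo 1 to 4. The populations did not overlap. Il18 against its inhibitor Il18bp ranged from 0.558 to 2.31 in QZ1-hi and from 0.530 to 2.16 in QZ1-lo, which overlapped almost fully. The ratio of Il18r1 to its partner chain Il18rap was 5.34 to 10.2 in QZ1-hi and 9.90 to 11.5 in QZ1-lo, and QZ1-hi 3 lay inside the QZ1-lo range. Il33 over its receptor Il1rl1 spanned 4.00 to 40.3 in QZ1-hi and 7.34 to 80.8 in QZ1-lo. Il1b over Il1rn ran from 1.99 to 3.64 and from 2.52 to 4.17. The ratios involving Il1rl1 rest on as few as 20 counts of it in QZ1-lo 3.

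**Figure D3:**
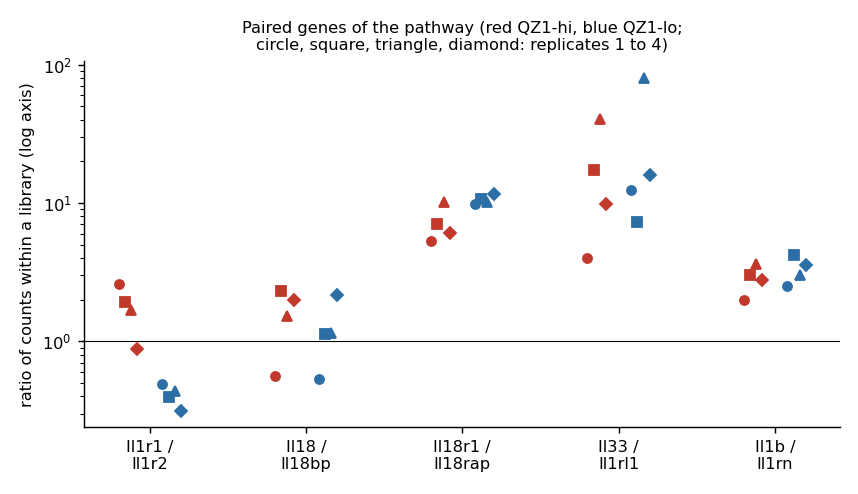
Ratio of counts within each library (vertical log axis) for 5 pairs of pathway genes, QZ1-hi in red and QZ1-lo in blue, with 1 symbol per library. The ratios are not corrected for gene length, so the line at 1 does not mark equal levels. Il1r1 over Il1r2 separates the populations (0.878 to 2.58 against 0.314 to 0.488), and the other 4 pairs overlap.

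The rest of the pathway was taken from 8 lists of 65 further genes, written by role. Earlier results of these data were known when the lists were written, so their p values are given as a description. Of these, 52 passed the low-count filter. In edgeR, 4 were called higher in QZ1-hi (Irak3, Saa3, Lcn2 and Vcam1), 6 lower (Il18rap, Nlrp3, Nfkb2, Relb, Tnfaip3 and Icam1) and 42 were not called, against 9.88% higher and 8.21% lower among all genes. The median log2 fold change of the 52 was -0.02, against 0.02 for all genes.

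Of the 7 other ligands, 3 were tested and none was called. Il1b, the main secreted IL-1, measured 97.7, 137.8, 126.6 and 213.6 CPM in QZ1-hi 1 to 4 and 198.5, 202.6, 173.9 and 198.3 CPM in QZ1-lo 1 to 4 (log2 fold change -0.43, SE 0.20, edgeR adjusted p = 0.193). QZ1-hi 4 was above all QZ1-lo libraries and the other 3 were below them. The macrophage and monocyte sum (6746 CPM, of which Lyz2 was 5763 CPM) and the neutrophil sum (350 CPM) were also the highest of QZ1-hi in QZ1-hi 4. In QZ1-lo, Il1b and the neutrophil sum were highest in QZ1-lo 2 and the macrophage sum in QZ1-lo 4. The part of these cells in the Il1b level was not tested. Without QZ1-hi 4 Il1b was called lower (-0.65, edgeR adjusted p = 0.0135). Il1a had 0.50 (edgeR adjusted p = 0.201, and -0.0095 with library size scaling) and Il36g had -0.72 (edgeR adjusted p = 0.246). Library size scaling called Il1b (-0.96, edgeR adjusted p = 0.00533) and Il36g (-1.23, edgeR adjusted p = 0.0252) lower. Il36b, Il36rn and Il1f10 had no count in any library, and Il36a had 2 counts in QZ1-hi 1 alone, so they were at or under the floor.

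Of the 5 other receptor genes, Il18rap, the signalling partner of Il18r1, was called lower. It measured 9.83, 7.90, 4.22 and 6.73 CPM in QZ1-hi 1 to 4 and 14.4, 12.4, 14.0 and 10.4 CPM in QZ1-lo 1 to 4 (log2 fold change -0.83, SE 0.25, edgeR adjusted p = 0.0422). The populations did not overlap, but the call held in only 2 of the 8 fits that left out a library. Il1rl2, the IL-36 receptor, had 0.39 and Sigirr, an inhibitory receptor of the family, had 0.37 (edgeR adjusted p = 0.469 and 0.33), and both turned negative with library size scaling. Il1rapl2 had no count, and Il1rapl1 stayed at or below 0.840 CPM.

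In the MyD88 and IRAK list, 1 of 12 genes was called. Irak3, an IRAK family member that restrains signalling, was at 15.8, 18.1, 23.0 and 14.96 CPM in QZ1-hi 1 to 4 and at 6.77, 5.98, 6.98 and 8.76 CPM in QZ1-lo 1 to 4. All QZ1-hi libraries were above all QZ1-lo libraries (log2 fold change 1.33, SE 0.20, edgeR adjusted p = 0.00104). The adaptor Myd88 had 0.32 (edgeR adjusted p = 0.161), the kinase Irak1 0.11 (edgeR adjusted p = 0.598) and the TAK1-binding gene Tab2 -0.32 (edgeR adjusted p = 0.0615).

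Of the 8 inflammasome and processing genes, Nlrp3, a sensor that assembles the complex, was called lower. It measured 27.8, 27.6, 39.9 and 39.7 CPM in QZ1-hi 1 to 4 and 46.4, 55.0, 54.3 and 46.8 CPM in QZ1-lo 1 to 4 (log2 fold change -0.59, SE 0.16, edgeR adjusted p = 0.0233), and the call was lost in 4 of the 8 fits that left out a library. The protease Casp1 had 0.35, the adaptor Pycard 0.73 and the pore former Gsdmd 0.36, none of them called (edgeR adjusted p = 0.391, 0.093 and 0.148).

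Of the 13 NF-kB subunits and regulators, 3 were called lower and none higher. Nfkb2, which encodes the p100 precursor of the noncanonical branch, was at 38.9, 39.1, 34.3 and 36.9 CPM in QZ1-hi 1 to 4 and at 66.6, 68.3, 74.9 and 62.8 CPM in QZ1-lo 1 to 4. The populations were far apart (log2 fold change -0.87, SE 0.11, edgeR adjusted p = 0.00051). Its partner Relb had -0.94 (SE 0.25, edgeR adjusted p = 0.0249), a call lost in 2 of the 8 fits that left out a library. The feedback inhibitor Tnfaip3 had -0.41 (SE 0.13, edgeR adjusted p = 0.0479), lost in 7 of those 8. Nfkb1 (-0.08), Rela (-0.34), Nfkbia (-0.32) and Nfkbiz (0.21) were not called.

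Of the 14 genes that NF-kB signals can induce, 12 were tested. Of the adhesion molecules of the list, Vcam1 was higher in QZ1-hi (26.9 to 35.6 CPM against 6.77 to 13.2 CPM, log2 fold change 1.66, SE 0.20, edgeR adjusted p = 0.000423) and Icam1 was lower (181.04 to 298.99 CPM against 435 to 571 CPM, -1.03, SE 0.16, edgeR adjusted p = 0.00141). Neither gene overlapped between the populations. Sele, a further adhesion molecule, had 2.68 (SE 1.09, edgeR adjusted p = 0.126), overlapped and was not called. Lcn2, an iron-binding defence protein, was higher (268 to 444 CPM against 174 to 203 CPM, 0.76, SE 0.17, edgeR adjusted p = 0.00832), a call lost with library size scaling. Saa3, an acute-phase gene, was at 20.5 CPM in QZ1-hi 1 and at 2.91 to 3.87 CPM in QZ1-hi 2 to 4, against 0.529 to 1.64 CPM in QZ1-lo. Its log2 fold change of 2.89 (SE 0.68, edgeR adjusted p = 0.0123) was 1.68 without QZ1-hi 1, still called. Ptgs2 (-0.46), Cxcl2 (-0.42), Cxcl1 (0.54) and Ccl2 (1.55, SE 0.60) were not called.

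Of the 4 cytokines that IL-18 and IL-33 are known to induce in lymphocytes, only Ifng passed the filter. It ranged from 0.0424 to 2.52 CPM in QZ1-hi and from 0.409 to 0.976 CPM in QZ1-lo and was not called (0.31, SE 1.00). Il4, Il5 and Il13 did not pass the filter, and the highest of them was Il13 at 0.491 CPM in QZ1-lo 4. Of the other epithelial alarmins, Il25 had no count in any library and Tslp reached 0.790 CPM at most.

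**Figure D4:**
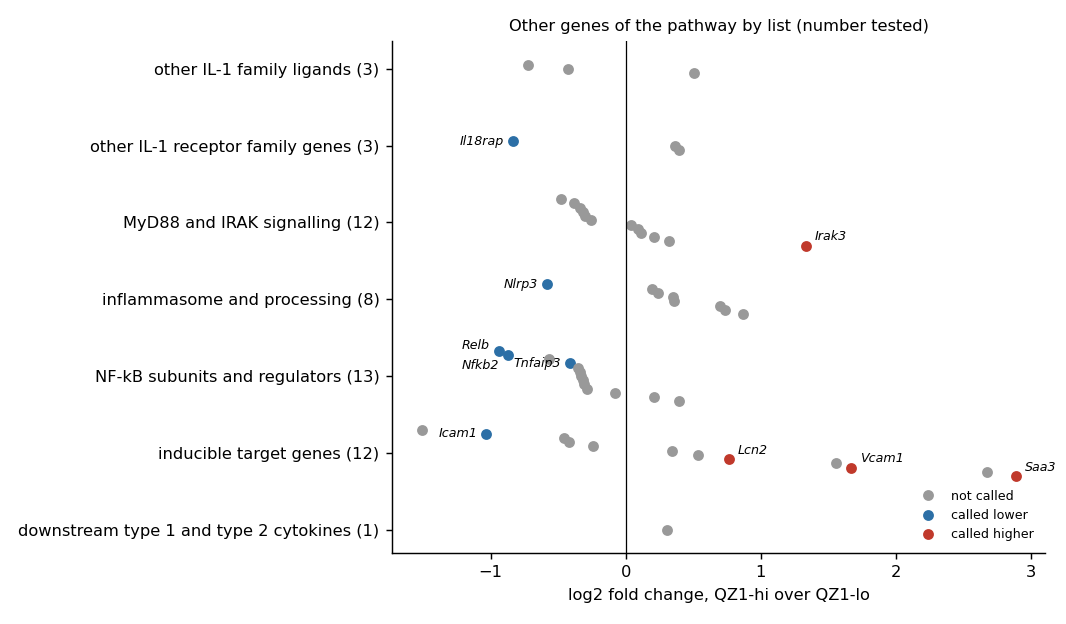
Log2 fold change, QZ1-hi over QZ1-lo (horizontal axis), of the 52 tested genes of the pathway lists (rows, with the number tested), with 1 point per gene, red called higher, blue called lower and grey not called. The 4 genes called higher are Irak3 (1.33), Lcn2 (0.76), Vcam1 (1.66) and Saa3 (2.89), and 3 of the 6 called lower are in the NF-kB list.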

How the data were processed

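The deposited values are unnormalized read counts for 27179 Entrez identifiers, which the authors obtained with Rsubread from 8 libraries (SMARTer Stranded Total RNA kit, NextSeq500). The submitters' processing notes name mm10 and DESeq2. The aligner, annotation and strand setting are not given in the sources used here. Symbols were matched by identifier for 25275 of them. Exon lengths, overlaps and the exon check of printed bases used GENCODE M21. Gene positions and promoter windows were taken from RefSeq (GRCm38.p6).

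Counts were tested in R 4.3.3 with edgeR 4.0.16: filterByExpr (minimum count 10, minimum total 15), TMM scaling and the quasi-likelihood test, with Benjamini-Hochberg adjustment over 15583 genes at 0.05. A call means passing this threshold. The common dispersion was 0.113. The procedure was tested on simulated data. The alternatives were DESeq2 1.42.0, limma 3.58.1, other scalings and filters, and leaving out each library.

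The 9 genes and the lists were chosen with earlier results of these data known. The named genes were the 9, called genes of the lists, other ligands and receptors, the chromosome 1 cluster and the cell type markers. Some further genes of the lists were also named, not strictly by mean CPM.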

Additional observations from a re-analysis of the deposited data

Results flagged for a closer look

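In groups of 4 libraries, 1 library lay farther from the other 3 than Dixon's 95% critical value allows in 7 of 56 values tested, and chance gives about 1 in 20 such groups. Among the 9 genes, this was Il1rap, at 15.6 CPM in QZ1-lo 3 where QZ1-lo 1, 2 and 4 gave 12.5 to 12.8 CPM. In QZ1-hi 1, Saa3 was at 20.5 CPM against 2.91 to 3.87 CPM, and Lcn2 was at 444 CPM against 268 to 294 CPM, in the other QZ1-hi libraries. Il1a was highest in QZ1-hi 4 at 23.6 CPM against 13.6 to 14.8 CPM. Il1rl2 was lowest in QZ1-hi 3 at 3.47 CPM against 8.69 to 9.71 CPM. In QZ1-lo 3, Il1b was lowest at 173.9 CPM against 198.3 to 202.6 CPM, and Slc9a2 was highest at 6.66 CPM against 0.716 to 1.63 CPM.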

How the results depend on the processing

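The alternatives reuse the libraries whose results were known when the 9 genes were listed, so they show only the dependence on processing. Il18r1 and Il1r2 were called lower in every one of the 16 alternatives, and Il1r1 was called higher in all of them but library size scaling. That scaling, which shifted the median over all genes from 0.02 to -0.44 (log2), gave 882 genes higher and 2509 lower (1540 and 1280 with TMM), 0 of the 9 genes higher, and 22 of the 65 further genes lower. It also turned the sign of Il18bp (-0.24), Il33 (-0.080), Il1a (-0.0095), Il1rl2 (-0.11), Sigirr (-0.074), Map4k4 (-0.12), Slc9a4 (-0.41) and Mfsd9 (-0.21). Slc9a4 also turned with limma (-0.10) and without QZ1-hi 4 (-0.35 to 0.41 over the libraries left out), and Mfsd9 without QZ1-hi 1 (-0.089 to 0.36). The cause was not tested for these. Leaving out each library in turn gave 1136 to 1506 genes higher and 938 to 1201 lower, 1 to 2 of the 9 genes higher (2 without QZ1-lo 1, when Il33 joined) and 2 of them lower, and 4 to 5 further genes higher and 2 to 7 lower (2 without QZ1-lo 2). Saa3 was not called with limma (2.54, adjusted p = 0.0578), and Slc9a2 was -0.09 without QZ1-lo 3. No paired analysis was possible because neither the labels nor the methods link QZ1-hi and QZ1-lo libraries of a mouse, and replicate numbers were given in accession order. Depth limits the genes at or under 3 counts.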
